A study of Mus musculus with 28 samples.

Results

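The kainate receptor genes Grik1, Grik2, Grik3, Grik4 and Grik5 and the delta receptor gene Grid1 were followed through 28 single mouse brain cells. These 6 genes were chosen by name, and all 6 were listed among the 23453 genes of the exonic count table and the 20422 genes of the intronic count table. The sample labels describe 12 neurons and 8 astrocytes from primary cultures of cortex, strain C57/BL6, and 8 interneurons of the prefrontal cortex, strain C57/BL6/N, drawn out of acute brain slices through a patch-clamp pipette. No treatment or allele separates these samples, and no animal or culture is named for any of them. The labels give a 3-month-old male mouse for the cultured cells, whereas the methods of the study describe cultures from embryos. A cell drawn into a pipette can yield only part of its RNA, and the cultured and slice cells were prepared with different library kits and sequenced on different instruments.

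The 28 columns of the count tables carry codes that appear in none of the labels, so no column could be tied to a labelled cell type. The columns are therefore described in 3 blocks by code alone. The block called BRP-late holds the 8 columns BRP564 and BRP566 to BRP572, the block called BRP-early holds the other 12 BRP columns, and the block called F holds the 8 columns whose code starts with F. With no labelled groups and no named animals, no test was made between blocks. The values of the cells are given with the lowest, the median and the highest of each block.

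Kainate receptors are tetrameric glutamate-gated cation channels. The products of Grik1, Grik2 and Grik3, known as GluK1, GluK2 and GluK3, can form channels by themselves. The products of Grik4 and Grik5, known as GluK4 and GluK5, bind kainate with high affinity and reach the membrane as channels when joined to GluK1, GluK2 or GluK3. In the cortex and hippocampus, kainate receptors act on both sides of the synapse and tune transmitter release and excitability, and GluK1 is best known from GABAergic interneurons. The delta receptor GluD1, made from Grid1, belongs to the same superfamily by sequence, and is known as a synaptic organizer that binds cerebellins outside the cell.

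The 6 genes share a strongly conserved coding stretch around the third membrane segment, which lines the pore, and it is shown here because shared letters decide whether a short read can be assigned to a single paralog. Each line holds 81 bases of coding sequence, 5′ to 3′ along the transcript, from the GENCODE M21 annotation of build GRCm38 (mm10). Capitals mark bases that differ from Grik2 at the same position.
Grik1, chr16:87935982-87936062, minus strand, exon 13 of 17: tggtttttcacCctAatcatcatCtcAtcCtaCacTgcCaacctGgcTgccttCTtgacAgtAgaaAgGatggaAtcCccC
Grik2, chr10:49240663-49240743, minus strand, exon 14 of 17: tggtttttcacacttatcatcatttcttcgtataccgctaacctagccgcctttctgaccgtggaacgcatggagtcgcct
Grik3, chr4:125694015-125694095, plus strand, exon 13 of 16: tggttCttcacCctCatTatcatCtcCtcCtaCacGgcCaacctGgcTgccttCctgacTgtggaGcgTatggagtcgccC
Grik4, chr9:42543842-42543922, minus strand, exon 17 of 21: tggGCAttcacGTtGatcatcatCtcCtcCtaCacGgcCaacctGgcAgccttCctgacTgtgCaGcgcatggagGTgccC
Grik5, chr7:25015892-25015972, minus strand, exon 16 of 20: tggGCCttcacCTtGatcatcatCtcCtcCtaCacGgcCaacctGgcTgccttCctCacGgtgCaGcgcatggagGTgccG
Grid1, chr14:35452314-35452394, plus strand, exon 12 of 16: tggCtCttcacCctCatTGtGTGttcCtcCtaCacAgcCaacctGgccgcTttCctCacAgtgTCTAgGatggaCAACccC

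Against Grik2, Grik3 differed at 17 of the 81 positions, Grik1 at 19, Grik4 at 21, Grik5 at 22 and Grid1 at 29. Over all annotated coding transcripts, the longest run of identical bases was 38, between Grik3 and Grik5. It was 35 bases between Grik1 and Grik2 and between Grik4 and Grik5, and 4 of the 15 pairs shared no run of 15 bases. How the counter treated reads that match several genes is not given in the sources used here, so reads that lie inside such a run are uncertain. The members are long genes with small exonic parts. Grid1, at chr14:34820108-35583379, spans 763 kb with 5.96 kb of exon, and Grik2, at chr10:49094833-49788766, spans 694 kb with 13.2 kb of exon. Grik4, at chr9:42518135-42944493, spans 426 kb with 5.96 kb of exon, and Grik1, at chr16:87895900-88290265, spans 394 kb with 6.72 kb. Grik3, at chr4:125490700-125714173, spans 223 kb with 8.97 kb of exon, and Grik5, at chr7:25009849-25072346, is the shortest at 62.5 kb with 5.17 kb. The introns of Grik2 contain 6 other annotated genes on the same strand, none of them listed in either table, and no annotated gene overlaps Grik1 or Grik5.

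Exonic counts per cell ran from 12969692 to 19798892 in the BRP-late block, from 17483754 to 26770944 in the BRP-early block and from 838343 to 14831505 in the F block. A gene with 0 counts in a cell could still be present at up to 3 counts, which is 0.152 to 0.231 counts per 1000000 exonic counts (CPM) in the BRP-late cells, 0.112 to 0.172 CPM in the BRP-early cells and 0.202 to 3.58 CPM in the F cells. These limits cover counting error only. Intronic counts were 5.67 to 13.0% of all counts in the BRP-late cells and 8.91 to 38.8% in the BRP-early cells, and reached from 5.31% in F1 to 63.0% in the F block. The summed exonic level of 8 astrocyte markers was 2621 to 7081 CPM in BRP-late cells, 196 to 2463 CPM in BRP-early cells and 1.19 to 4363 CPM in F cells. Slc1a2 alone reached 2459 CPM in BRP-early and 4350 CPM in F cells, against at most 470 CPM in BRP-late cells. Each of the other astrocyte markers had its highest block median in the BRP-late block. The sum of 6 neuronal markers was 299 to 801 CPM in BRP-late, 4737 to 8469 CPM in BRP-early and 1608 to 16746 CPM in F cells. The 5 GABAergic markers summed to at most 42.6 CPM in BRP-late cells, at most 2831 CPM in BRP-early cells and 564 to 11673 CPM in F cells, and the 4 glutamatergic markers to at most 144, 1057 and 4.92 CPM. The sum of microglial markers reached 2093 CPM in an F cell and stayed at or below 46.6 CPM in both BRP blocks. The 2093 CPM came from Csf1r, and no other microglial marker was above 4.73 CPM in any F cell. Endothelial markers stayed at or below 19.7 CPM, and oligodendrocyte and precursor markers at or below 610 and 303 CPM.

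Several libraries stood apart from their block. F11 and F12 had nearly the same profile, with a correlation of log2(CPM + 1) across genes of 0.95 for exons and 0.96 for introns, where the next highest pair of F cells had 0.49 and 0.55. Their exonic counts still differed by more than counting error alone, with a chi-square per degree of freedom of 17.6 over 1900 genes. That value takes each count as an independent draw, so it cannot tell whether the pair came from 1 cell or 2. They were kept as 2 cells, and F results that rest on F12 are also given without it. Gad1, which makes GABA, was at 18.9 CPM in F11 and 0.74 CPM in F12 against 1092 to 8713 CPM in the other F cells, and Sox9, a glial transcription factor, was at 1063 and 1180 CPM in that pair. The same pair held the vesicular GABA transporter gene Slc32a1 at 443 and 618 CPM, while Aqp4, the astrocytic water channel, was at 0.68 and 0 CPM and Gfap, an astrocyte filament gene, was listed at 0 in both. In the BRP-early block, BRP528 held Gad1 at 1136 CPM and Aqp4 at 142 CPM, and BRP529 held Aqp4 at 418 CPM.

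Grik1, encoding GluK1, was found at high exonic level in F cells alone among these 28 cells, and in 4 of the 8. Its level was 824 CPM in F1, 771 CPM in F6, 354 CPM in F7 and 159 CPM in F24. It was 2.28 CPM in F11 and 0.54 CPM in F2, and was listed at 0 in F12 and F16. The F block therefore split into 4 cells at 159 CPM or more and 4 cells at or near 0, the latter being 3 without F12. In F16, the shallowest cell, a count of 0 allows up to 3.58 CPM. All 8 BRP-late cells were listed at 0 exonic counts of Grik1. Of the 12 BRP-early cells, 4 had any count, with 3.27 CPM in BRP529 as the highest. Since 4 F cells overlapped the BRP range, Grik1 did not separate the blocks under the rule that every cell of a block lies above every cell of another. No member lay higher in all F cells than in all BRP cells, and over all genes that was true of 0.0346% of 14463 genes against the BRP-late block and 0% of 15281 genes against the BRP-early block.

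The GABAergic markers varied within both sets of F cells. Gad1 was at 5143, 8713, 1092 and 3151 CPM in F1, F6, F7 and F24, and at 2357, 18.9, 0.74 and 4820 CPM in F2, F11, F12 and F16, where Grik1 exons were at or near 0. Slc32a1 was at 727, 8.39, 41.9 and 1813 CPM in the former set, and in the latter at 867, 443, 618 and 0 CPM. Gad2, which also makes GABA, was at 5801, 1730, 0.12 and 0.95 CPM in the former and at 889, 15.7, 0 and 4.77 CPM in the latter. The part that cell identity or partial RNA recovery plays in the split was not tested.

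Grik2, encoding GluK2, was present in every BRP-early cell and nearly absent from exons in F cells. Its exonic level was 8.91 CPM at the lowest, 23.5 CPM at the median and 74.1 CPM at the highest among BRP-early cells. Among BRP-late cells it ran from 0 through a median of 4.13 to 65.2 CPM, with 65.2 CPM in BRP569, 52.4 CPM in BRP566 and 10.4 CPM in BRP567. Among F cells, F7, F11 and F24 had 1 exonic count each and the other 5 cells had none. Every BRP-early cell lay above every F cell, while BRP-late cells overlapped both.

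Grik3, encoding GluK3, had an exonic count in 9 of the 28 cells, and at least 5 counts in 8 of them. BRP568 had 33.2 CPM, BRP567 had 7.10 CPM, BRP541 had 5.18 CPM and F24 had 60.0 CPM. The other 5 cells with a count lay at or below 1.78 CPM. F24 thus carried Grik1 and Grik3 together, the only F cell with any exonic count of Grik3.

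Grik4, encoding GluK4, ranged widely among BRP cells, with at most 1 count in several. Among BRP-early cells it was listed at 0 in BRP528 and BRP542, had a median of 0.98 CPM and reached 73.7 CPM in BRP540 and 28.3 CPM in BRP529. BRP536 followed at 10.8 CPM, BRP538 at 5.78 CPM and BRP541 at 5.35 CPM, and the rest lay at 1.02 CPM or less. Among BRP-late cells, BRP564 had 17.3 CPM and BRP570 had 17.1 CPM, while the other 6 had at most 1 count. The single exonic count of Grik4 in the F block was in F11. All 3 blocks overlapped at or near 0.

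Grik5, encoding GluK5, was the only member with an exonic count in all 20 BRP cells. It stood at 1.31, 5.43 and 12.7 CPM as the lowest, median and highest in the BRP-late block and 4.83, 22.0 and 49.7 CPM in the BRP-early block. Of the F cells, F11, F12 and F24 had 1 count each, the highest being 0.47 CPM, and the other 5 cells had none. As listed, every BRP cell lay above every F cell. In F16, however, a count of 0 allows up to 3.58 CPM, above BRP569 at 1.31 CPM and BRP570 at 3.49 CPM. The BRP blocks overlapped only through BRP528, which at 4.83 CPM lay among the BRP-late cells, the next lowest BRP-early cell being BRP536 at 13.4 CPM.

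Counted together, Grik5 was the only member of the 6 whose BRP-late cells all lay above all F cells, where 22.0% of 14463 genes did so. Grik2 and Grik5, 2 of the 6, did so for BRP-early above F, where 9.25% of 15281 genes did. No member separated the BRP blocks in either direction, against 3.26% of 16110 genes higher in BRP-late and 2.56% higher in BRP-early cells. Without BRP528 and BRP529, Grik5 lay higher in all BRP-early than in all BRP-late cells, against 3.94% of the genes compared.

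Grid1, encoding GluD1, was low in exons in all cells but BRP537. All 12 BRP-early cells had a count, from 0.048 CPM through a median of 1.59 CPM to 40.2 CPM in BRP537, and the next highest cells were BRP539 and BRP535 at 5.28 and 5.27 CPM. Of the BRP-late cells 5 had a count, with 2.82 CPM in BRP572 as the highest. F6 had 9 counts, or 0.75 CPM, and the other 7 F cells had none.

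**Figure D1:**
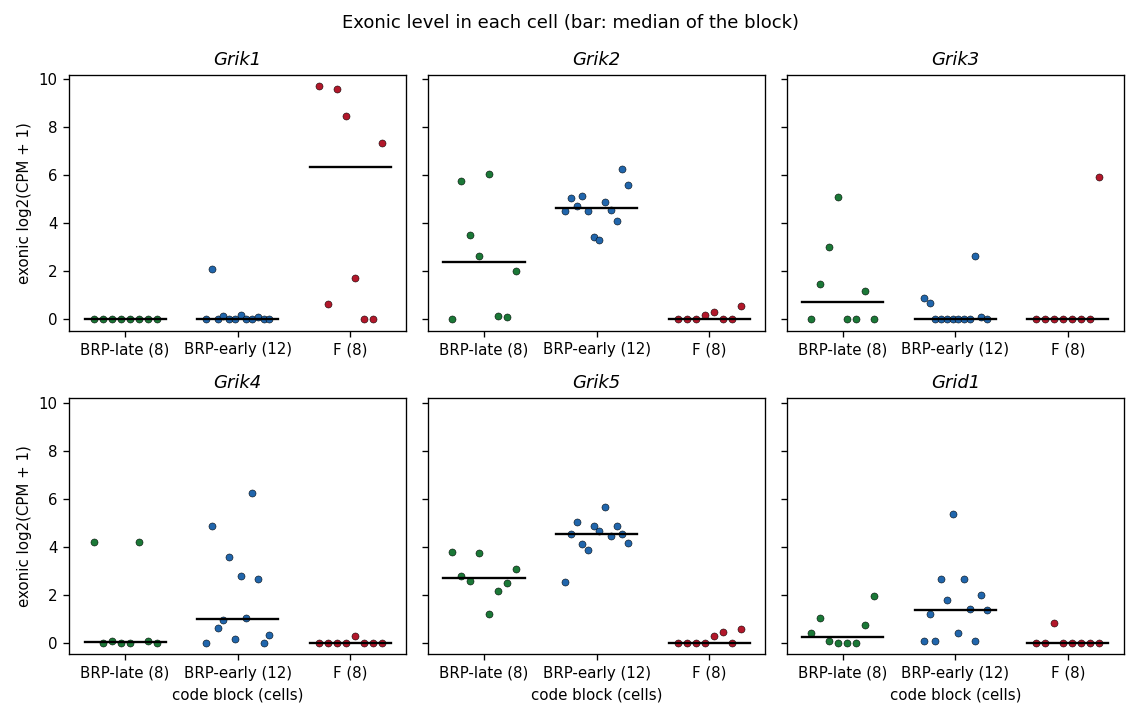
Exonic level of each of the 6 genes as log2(CPM + 1), 1 point per cell, by code block, with a bar at the block median. Grik1 reaches high values in 4 of 8 F cells only, Grik2 and Grik5 are near 0 in all F cells, and Grik3, Grik4 and Grid1 are carried by few cells.

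To set genes of unequal length side by side, exonic CPM was divided by the kilobases of annotated exon. In the BRP-early block the medians fell in the order Grik5 at 4.25, Grik2 at 1.77, Grid1 at 0.27 and Grik4 at 0.16 CPM per kb, with Grik1 and Grik3 at 0. In the BRP-late block the order was Grik5 at 1.05, Grik2 at 0.31, Grik3 at 0.068, Grid1 at 0.031 and Grik4 at 0.0043 CPM per kb, with Grik1 at 0. Neighbours in both orders overlapped, for example Grik5 with 0.93 to 9.61 and Grik2 with 0.67 to 5.59 CPM per kb among BRP-early cells. For F cells Grik1 had a median of 12.0 CPM per kb and a highest value of 123, and the other 5 genes had a median of 0. Lying in the gap between the high and low cells, the Grik1 median is unstable: without length scaling it was 80.5 CPM, 159 CPM without F12 or any other low cell, and 2.28 CPM without any of the 4 high cells.

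The mixture of kainate receptor genes varied widely from cell to cell among the BRP cells. Summed over the cells of the BRP-early block, Grik5 made up 52.7% of the per-kb level of Grik1 to Grik5, Grik2 25.2%, Grik4 20.9%, Grik3 0.73% and Grik1 0.52%. In the BRP-late block Grik2 made up 33.1%, Grik5 32.8%, Grik4 18.6% and Grik3 15.5%. The order of Grik2 and Grik5 depends on the length correction, since on CPM alone Grik2 made up 45.1% and Grik5 36.8% in the BRP-early block, and 51.1% and 19.7% in the BRP-late block. In single cells, on the per-kb scale, the leading gene was Grik5 in 7, Grik2 in 3 and Grik4 in 2 of the 12 BRP-early cells. Among the 8 BRP-late cells it was Grik5 in 3, Grik2 in 2, Grik4 in 2 and Grik3 in 1. The shares in a cell could be extreme: Grik2 made up 95.1% in BRP569, Grik4 80.8% in BRP570, Grik5 88.0% in BRP537 and Grik3 57.1% in BRP568.

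In the F block Grik1 made up 97.8% of the summed per-kb level. F1 and F6 had no exonic count of any other kainate receptor gene, and in F7 Grik1 made up nearly all. In F24 Grik1 made up 77.6% and Grik3 22.0%. The other 4 F cells held fewer than 20 exonic counts over the 5 genes, from 0 in F16 to 13 in F11, and were given no shares. Every BRP cell with kainate counts carried a gene of the high-affinity pair, Grik4 or Grik5, beside any others. The 3 F cells F1, F6 and F7 had Grik1 with no exonic count of either, and F24 had 1 exonic count of Grik5.

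**Figure D2:**
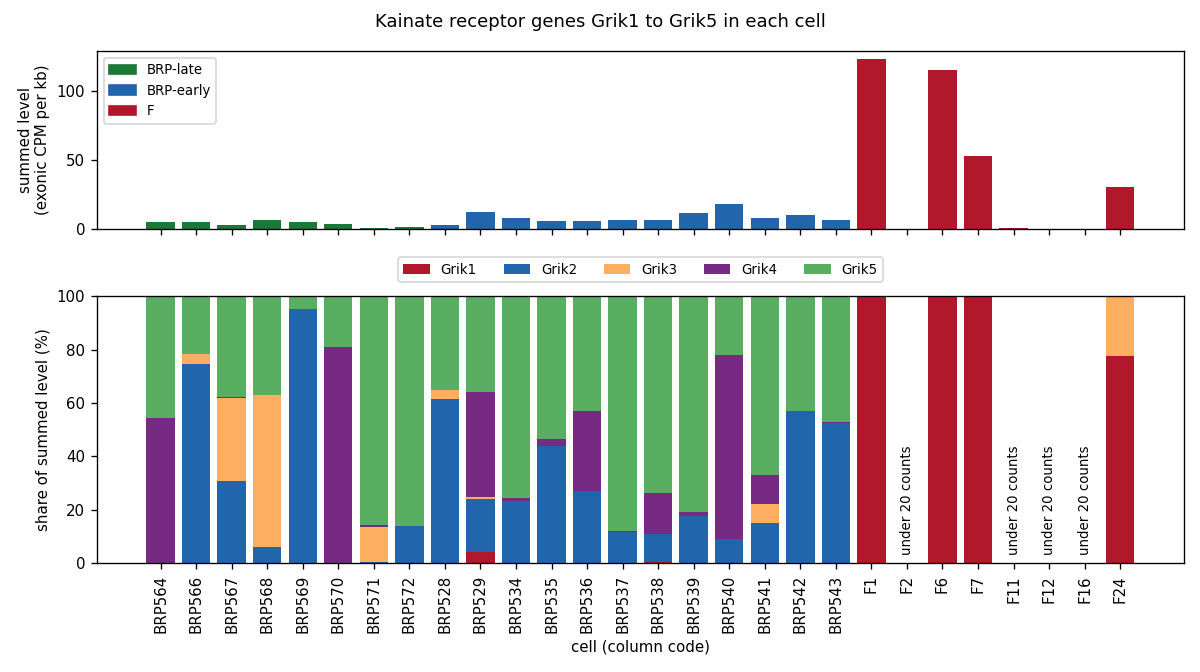
Upper bars give the summed exonic level of Grik1 to Grik5 in CPM per kb of exon for each cell, coloured by code block, and lower bars the share of each gene in percent. F1, F6, F7 and F24 stand at 30.4 to 123 CPM per kb and consist mostly of Grik1, whereas BRP cells stand at 1.04 to 17.99 CPM per kb with mixtures led by Grik5, Grik2, Grik4 or Grik3.

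Intronic counts of several members were high where exonic counts were near 0. Intronic levels are given as CPM of the intronic total of the cell. Every one of the 28 cells had intronic counts of Grik1, Grik2, Grik3 and Grid1, 27 had those of Grik4 and 26 those of Grik5. Intronic Grik2 ran from 106 through 792 to 2844 CPM in the BRP-late block, from 188 through 892 to 2119 CPM in the BRP-early block, and from 99.7 through 1054 to 8557 CPM in the F block. The blocks overlapped in part: on this scale F16 at 8557 CPM and F1 at 5694 CPM lay above every BRP cell and F7 lay below every BRP cell. The places of F1 and F7 depend on their intronic totals, which were 831965 counts in F1 and 10515297 in F7. F1 held 4737 intronic counts of Grik2 against 20726 in BRP542, and F7 held 1048 against 285 in BRP570. F16 and F1 had no exonic count of Grik2.

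Grik1 showed both extremes among F cells. F1 had 12223 exonic and 4 intronic counts of Grik1, F2 had 3 exonic and 7910 intronic counts, and F7 had 3077 exonic and 42539 intronic counts. F6 had 9289 and 8592 and F24 had 336 and 658. F11, F12 and F16 had 8 to 12 intronic counts. F1 was also the F cell with the lowest intronic share of all counts. In the BRP-late block, with no exonic count of Grik1 in any cell, intronic counts of Grik1 were 1 to 281 per cell, or 1.03 to 181 CPM. In the BRP-early block they were highest in BRP528, at 1353 counts or 398 CPM.

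Intronic Grik3 had low medians, at 11.4, 6.74 and 16.4 CPM in the BRP-late, BRP-early and F blocks, and reached 220 CPM in F1, 198 CPM in F12 and 158 CPM in F11, all without an exonic count. Intronic Grik4 had medians of 37.3, 56.2 and 6.30 CPM, and in the F block stood at 310 and 295 CPM in F11 and F12 against at most 11.4 CPM elsewhere. Without F12 the cells high in Grik3 and Grik4 introns were F1 and F11, and F11 alone. Intronic Grik5 had medians of 30.1, 31.9 and 0.63 CPM, so that it was low in F cells in introns too. Intronic Grid1 had medians of 133, 251 and 12.2 CPM and was high in F7 at 1413 CPM and F2 at 1367 CPM, neither of which had an exonic count of it.

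**Figure D3:**
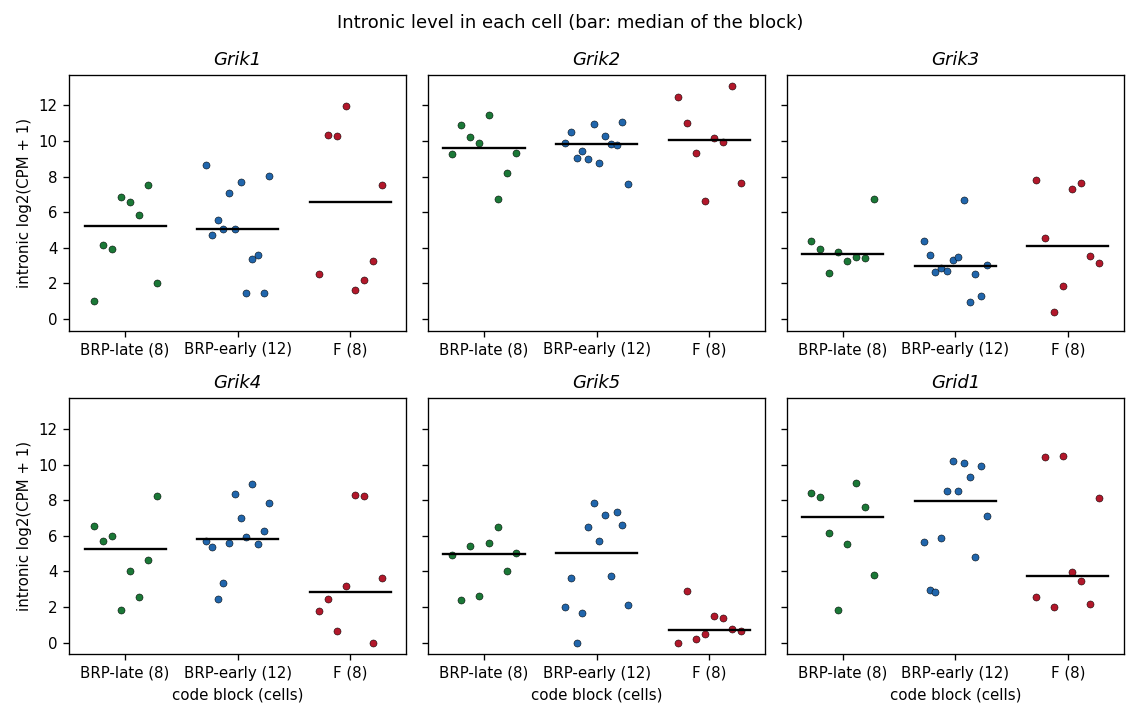
Intronic level of each of the 6 genes as log2(intronic CPM + 1), 1 point per cell, by code block, with a bar at the block median. Grik2 introns are present in every cell of all 3 blocks. On this scale of the cell's intronic total, which is low in F1, F1 and F16 lie above every BRP cell. Grik1 introns range in the F block from 2.08 to 4045 CPM.

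Because introns of these genes are far longer than their exons, counts were also divided by length and summed over each block. In the F block Grik2 had 3 exonic and 42260 intronic counts, which is 0.23 counts per kb of exon against 62.1 per kb of intron. The intronic density was the higher in 8 of 8 cells for Grik2, in 7 of 8 for Grid1, Grik4 and Grik3, and in 3 of 8 for Grik1. No minimum was set per cell, so a cell without exonic counts is called by any intronic count. Grid1, Grik4 and Grik3 each had an exonic count in 1 of the 8 F cells. Some calls rest on few counts, as with 2 intronic counts of Grik4 in F1 and 2 of Grik3 in F6. Grid1 had 9 exonic and 24338 intronic counts, or 1.51 against 32.1 per kb, and Grik4 had 1 and 2101, or 0.17 against 5.00 per kb. Of the intronic counts of Grik4, 1195 were in F11 and 746 in F12, and no other F cell had more than 86. Without F12 the intronic density of Grik4 was still the higher. Grik1 went the other way in the same block, with 24938 exonic and 59732 intronic counts, or 3710 against 154 per kb. Grik3, whose exonic counts were all from F24, had 14.2 against 7.01 per kb.

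Of the 5 members with at least 1000 counts in the F block, 3 had the higher density in introns, against 22.2% of 5161 genes. Grik4, among the 3, would fall below 1000 counts without both F11 and F12. Among genes whose introns added up to 200 kb or more, a limit set after the values were seen, it was 47.5% of 665 genes, and the same 3 of 5 members. Summed over a BRP block, no member with at least 1000 counts had the higher density in introns. There 3.60% of 9748 genes in the BRP-late block and 8.22% of 11251 genes in the BRP-early block did, or 15.5% of 769 and 15.1% of 906 genes above the 200 kb limit. Cell by cell, introns had the higher density in 9 of 12 BRP-early cells for Grik1 and 8 of 12 for Grik3. For Grik4 and Grid1 it was 4 of 12. These numbers largely follow exonic zeros, since Grik1 and Grik3 each had an exonic count in 4 of the 12 BRP-early cells. Some rest on few counts, as with 11 intronic counts of Grik1 in BRP539 and 10 of Grik3 in BRP540. Of the 79 exonic counts of Grik1 in that block, 73 were in BRP529. With that cell the densities of Grik1 were 11.8 exonic and 11.4 intronic counts per kb, and without it, a choice made after seeing the data, 0.89 and 11.2. Grik2 had 539 exonic against 98.4 intronic counts per kb in the BRP-early block, and the exonic density was the higher in all 12 cells. The kind of molecule that gave the intronic counts was not tested.

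**Figure D4:**
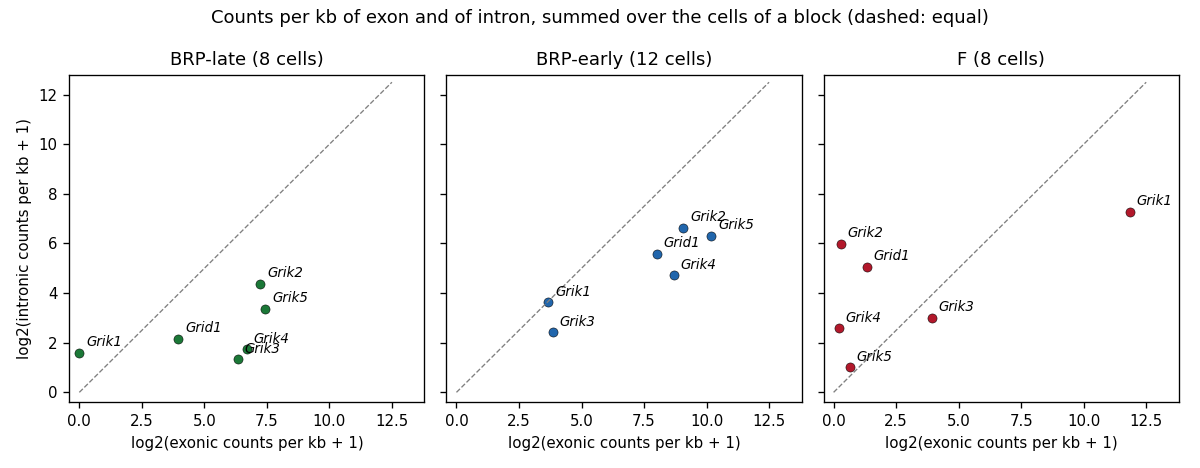
Intronic against exonic counts per kb of each gene, as log2(counts per kb + 1), summed over the cells of each code block, with a dashed line of equality. In the F panel Grik2, Grid1, Grik4 and, with 3 exonic and 58 intronic counts, Grik5 lie above the line and Grik1 far below it. In the BRP panels all genes with at least 1000 counts lie below it, Grik1 of the BRP-early block only just, and Grik1 of the BRP-late block, with fewer, lies above.

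Across all 28 cells, exonic and intronic levels of a member followed each other loosely. Spearman's rho was 0.57 for Grik5, 0.33 for Grik4, 0.31 for Grid1, 0.29 for Grik1, 0.11 for Grik2 and -0.12 for Grik3. Within blocks the values differed. Over the 8 BRP-late cells rho was 0.90 for Grik2 and -0.60 for Grik5. Over the 12 BRP-early cells it was 0.79 for Grid1, 0.41 for Grik5, 0.17 for Grik2 and -0.05 for Grik4, and over the 8 F cells 0.26 for Grik1. These are descriptions, since the cells differ in depth and in their total share of intronic counts.

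The auxiliary subunits Neto1 and Neto2, membrane proteins that modify the gating of kainate receptors, had different distributions. Neto2, the higher of the pair by its median over all cells, was at 164 to 366 CPM in BRP-late cells and 57.2 to 463 CPM in BRP-early cells. Among F cells it was high in F1, F2 and F6, at 185, 377 and 1815 CPM, and at most 1.14 CPM in the others. Neto1 was at most 8.85 CPM in BRP-late cells and 6.95 to 163 CPM in BRP-early cells. In F16, where no exonic kainate receptor count was found, Neto1 stood at 35736 CPM, and in F24 at 167 CPM. F16 was the shallowest cell, with exonic counts in 2338 genes and 41.9% of its exonic counts in its top 10 genes. Of the 4 F cells high in Grik1 exons, F1 and F6 had Neto2, F24 had Neto1, and F7 had 5.29 CPM of Neto1 and no Neto2. F2, which also had Neto2, held 3 exonic and 7910 intronic counts of Grik1.

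Of the 6 genes for extracellular ligands of delta and kainate receptors, C1ql3 had the highest median over all cells and the other 5 had a median of 0. C1ql3, a synaptic complement-like protein, was at 62.7 to 366 CPM in BRP-late cells and 0.40 to 1395 CPM in BRP-early cells, and at most 5.91 CPM in F cells. Cbln4, from the cerebellin family, had a count in 10 of 12 BRP-early cells, up to 522 CPM, and in no BRP-late cell. Cbln1, Cbln2 and C1ql2 had counts in 7, 6 and 5 BRP-early cells, and Cbln3 in 2 F cells with at most 0.47 CPM.

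Of the 7 intracellular partners, Cask, a synaptic scaffold, had the highest median over all cells, with 54.3 to 382 CPM in BRP-late, 69.0 to 397 CPM in BRP-early and 0 to 94.1 CPM in F cells. Of the 3 genes of the RNA editing enzyme family, Adar had the highest exonic median, with 21.2 to 92.6, 26.4 to 97.5 and 0 to 632 CPM. Adarb2 had the lowest, with an exonic count in 1 cell, though it had intronic counts in all 28 cells. Adarb1, an editing enzyme with glutamate receptor transcripts among its targets, named here after its values were seen, was at 56.1 to 408 CPM in BRP-early cells. It was at most 31.9 CPM in BRP-late cells, and in the F block high in F11 and F12 at 319 and 289 CPM and at most 1.81 CPM in the other cells. The 4 F cells high in Grik1 exons had little or no Adarb1, and so did F2 at 1.81 CPM and F16 at 0. The high Adarb1 values in the F block thus rest on the pair with nearly the same profile, and without F12 on F11 alone.

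Set beside the other ionotropic receptor families on the per-kb scale, the kainate genes were a small part in BRP-early cells. The summed kainate level was 2.67 through 7.47 to 17.99 CPM per kb there, against 153 through 246 to 356 for the 4 AMPA receptor genes and 10.4 through 24.1 to 58.1 for the 7 NMDA receptor genes. In BRP-late cells the kainate sum was 1.04 through 4.36 to 6.49 CPM per kb, with AMPA at 2.76 through 19.8 to 36.5 and NMDA at 2.67 through 3.72 to 11.3. BRP-late kainate and NMDA sums overlapped, and BRP564 had a higher kainate sum, 5.35, than AMPA sum, 2.76. For F cells the kainate sum ran from 0 in F16 to 123 in F1, AMPA from 60.2 to 1344 and NMDA from 0 to 105. AMPA receptor genes were therefore present in all F cells, the 4 with Grik1 exons at or near 0 included.

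**Figure D5:**
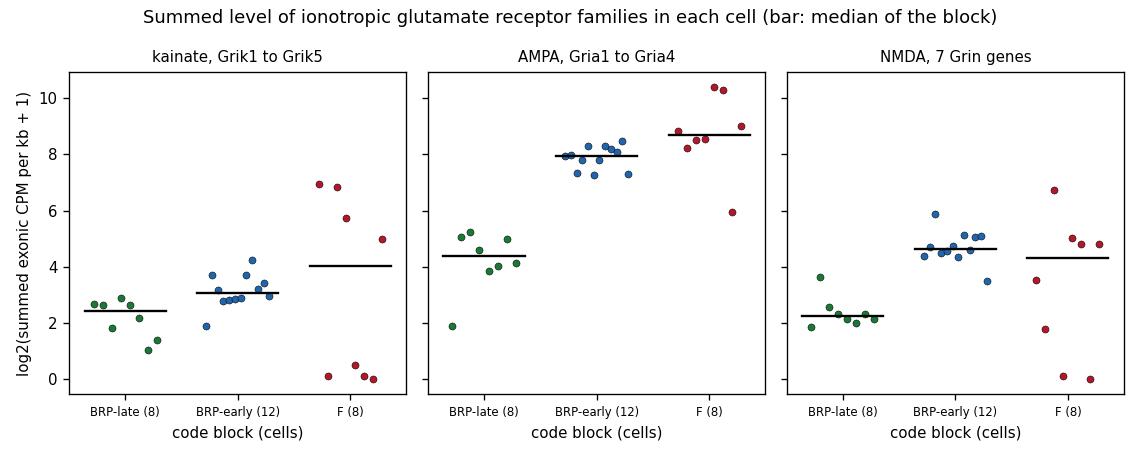
Summed exonic level of the kainate, AMPA and NMDA receptor families in each cell, as log2(CPM per kb + 1), by code block with a bar at the block median. The kainate sum splits the F block into 4 high cells and 4 near 0, whereas the AMPA sum is at least 60.2 CPM per kb in every F cell.

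Among the 6 members themselves, Spearman's rho of log2(exonic CPM + 1) over the 28 cells ran from -0.37, between Grik1 and Grik5, to 0.68, between Grik5 and Grid1. Grik2 and Grik5 had 0.65, and Grik4 and Grik5 0.63. Over the same cells the genes most like Grik5 were Hspa2 at 0.94, Asb1 at 0.93 and Lrpap1 at 0.92. Those most like Grid1 were Pip5k1a at 0.87, BC005561 at 0.85 and Ptprj at 0.84, and those most like Grik2 were Nkain2 at 0.82, Mtmr7 at 0.81 and Tmem234 at 0.81. For Grik4 they were Zswim7 at 0.79, Dyrk3 at 0.78 and Ide at 0.78, and for Grik1 they included Sema4g at 0.65 and Mpped1 at 0.64. Grik3 was counted in too few cells for this. These are descriptions over cells that differ in depth, and many of the values tie at 0.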

How the data were processed

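The authors deposited 2 tables of counts per gene and cell, 1 for exons and 1 for introns. All values were whole numbers with unequal totals, so they were taken as raw counts. Per the labels, the submitters' processing notes name bcl2fastq 2.17, STAR 2.4.0 and build mm10. The counter, its annotation and its strand setting are not given in the sources used here, and genes overlapping on either strand may share reads. The 28 columns could not be matched to the 28 labelled samples and were described by code block, with no test. Levels were counts per 1000000 (CPM), scaled to the exonic or intronic total of the cell. Exon and intron lengths came from GENCODE M21, which named 23044 of the 23453 exonic genes. Separation between blocks was counted over genes with at least 10 counts in the cells compared, and length-scaled densities over genes with at least 1000 counts in a block. All members are named, with the highest and lowest gene by median in each pathway list and the 3 most correlated genes per member counted in at least 10 cells. Alternatives used edgeR 4.0.16 and DESeq2 1.42.0 scaling. The code was tested on simulated data. The members and lists were chosen with earlier results of these data known. A few genes that these rules name are not reported here.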

Additional observations from a re-analysis of the deposited data

Results flagged for a closer look

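In 23 sets of member values over the 8 cells of a BRP-late or F block, a cell was looked for whose gap to its nearest neighbour was large against the whole range, by Dixon's critical value. Chance flags about 1 in 20 sets of evenly behaved values. The search found 9 such cells, but 3 of them are the only value above 0 in their set, which passes by construction, so the number found is not to be read against chance.

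In the F block, intronic Grik1 was highest in F7 at 4045 CPM, and the exonic levels of Grik3 at 60.0 CPM in F24, of Grik4 at 0.228 CPM in F11 and of Grid1 at 0.747 CPM in F6 were the only values above 0 in their sets. The Grik4 value was a single count and the Grid1 value 9 counts. Intronic Grik5 stood apart in F2 at 6.38 CPM, from 39 counts.

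In the BRP-late block, exonic Grik3 stood apart in BRP568 at 33.2 CPM. BRP572 stood apart in 3 sets, with intronic Grik3 at 106 CPM, intronic Grik4 at 305 CPM and exonic Grid1 at 2.82 CPM. BRP572 had no exonic count of Grik3 or Grik4.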

How the results depend on the processing

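Of 299 values recomputed under alternatives, 278 stayed within 1 SD over the cells of the block or, for counts, within 1.5 times, and 21 moved. edgeR's TMM factors, DESeq2's size factors, leaving out the 10 genes with most counts, leaving out genes with no intron and leaving out each cell in turn moved none by that measure, which is wide because the cells are skewed. Medians moved by over 1.5 times, or to or from 0, for 5 of 18 exonic levels with DESeq2's size factors, 2 of 18 with TMM, and 4 of 18 exonic and 7 of 18 intronic levels at the lowest of leaving out each cell. The exonic Grik1 median in the F block went from 80.5 to 370 CPM with DESeq2's size factors, to 29.95 CPM scaled to all counts, to 159 CPM without F12 and to between 2.28 and 159 CPM on leaving out each cell. Scaled to the exonic plus intronic total, 18 of 18 intronic medians moved by over 1.5 times, by construction of the smaller share. The shift was unequal between blocks. The median of intronic Grik2 went from 792 to 61.8 in BRP-late, from 892 to 120 in BRP-early and from 1054 to 385 in F cells. That of intronic Grik5 in BRP-late cells went from 30.1 to 2.30. With at least 5 counts required, cells with Grik1 in the BRP-early block went from 4 to 1, with Grik4 in the BRP-late block from 4 to 2, and with Grik2, Grik4 and Grik5 in the F block to 0. Thinned to 800000 exonic counts per cell, cells with Grik1 and Grik3 in the BRP-early block went to 2 and 1, with Grik4 and Grid1 in the BRP-late block to 2 and 3, and with Grik2, Grik4 and Grik5 in the F block to 0, 0 and 1. Without length correction Grik2 made up 45.1% of the kainate level in the BRP-early block. The share of Grik4 in the F block, 0.0119% from 1 count, was 0.0105% without length correction, 0.0066% per kb of the longest transcript and 0.0119% without F12. On introns 0 members separated BRP-late or BRP-early from F cells, where 3.15% and 0.49% of all genes did. Without BRP528 and BRP529, chosen after seeing the data, 1 member, Grik5, separated BRP-early from BRP-late cells. Depth limits the shallow F cells most, where single counts decide whether Grik2, Grik4 or Grik5 is seen. No paired analysis was possible because the result comes from no test.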
